A study of Homo sapiens with 24 samples.

Results

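The WNT ligands, their receptors and their secreted inhibitors were followed in ARPE-19 cells, a human cell line of the retinal pigment epithelium (RPE), in all 24 libraries of an RNA sequencing study of EMP2, a tetraspan membrane protein. Members were the rows of the gene count table whose symbol names a WNT ligand, a Frizzled receptor (FZD), a secreted Frizzled related protein (SFRP), a Dickkopf protein (DKK1 to DKK4) or an R-spondin (RSPO1 to RSPO4), together with FRZB, WIF1, LRP5, LRP6, AXIN2 and LEF1. They were 47 of 60623 genes, matched by name and not by level, though the set was chosen with earlier results of these data known. The study compared wild type (WT) cells, cells stably transduced with a control retrovirus (VC), cells that overexpress EMP2 from the same kind of retrovirus (OE) and EMP2 knock down (KD) cells made with a short hairpin RNA. Each line was sequenced as 3 libraries from normoxia and 3 from hypoxia, which was 4 h at 0.5% oxygen by the labels. VC is the vector control of OE cells, and a line with a control hairpin is not among the samples, so that KD cells can be set against WT cells only. The OE libraries numbered 3 carry the name OE1 and the other OE libraries the name OE2, with no statement of whether they were 1 line. The KD clone is not named. Differences between the lines therefore cannot be told apart from differences between the clones or cell populations that carry them, and nothing in the labels says that the 3 libraries of a group came from separate cultures, so that the p-values measure the spread between libraries, which may be technical.

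WNT proteins are lipid-modified secreted ligands that bind Frizzled receptors at the cell surface. Together with the co-receptors LRP5 and LRP6 they stabilise beta-catenin, which enters the nucleus and activates genes with the TCF/LEF factors, while WNT5A-type ligands also act without beta-catenin on cell polarity and migration. SFRP proteins bind WNT ligands, and some Dickkopf proteins, DKK1 among them, block LRP5 and LRP6. R-spondins keep Frizzled receptors at the surface, and AXIN2 and LEF1 are common targets of the pathway. In the eye, WNT signalling takes part in specifying the RPE, and FZD4 and LRP5 are needed for growth of the retinal vessels.

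The libraries held 10796813 to 19779450 counts, with a median of 15992615. Levels are given as CPM, gene counts scaled to library depth with TMM factors. Taking 3 counts as the limit for a gene at 0, the upper limit lay between 0.150 and 0.252 CPM depending on the library, which covers counting error only. EMP2 ranged from 478 to 625 CPM in OE, 37.8 to 55.6 CPM in WT, 32.7 to 52.0 CPM in VC and 7.53 to 12.8 CPM in KD libraries, in the order of the labels. All 9 RPE markers listed were detected in each line and summed to 484 to 559.6 CPM in WT, 243 to 288 in VC, 626 to 1257 in OE and 451 to 499.8 CPM in KD libraries. The 7 mesenchymal markers, of which 6 were detected in KD and all 7 in the other lines, summed to 313 to 391 CPM in WT, 92.3 to 136 in VC, 419.8 to 703 in OE and 285 to 343 CPM in KD libraries, and the summed endothelial markers stayed at or below 3.66 CPM. The summed markers of surface epithelium, neural retina and leukocytes reached 13.1, 1.75 and 1.00 CPM. Detected means more than 3 counts over the libraries of a line, and a sum can rest on few of its markers. The RPE and mesenchymal sums were lowest in VC and highest in OE cells, and their part in the differences between lines was not tested. The first OE library in hypoxia stood apart, since gene counts were 64.9% of its uniquely mapped reads against 90.0% to 91.5% in the others. Values include it unless stated, and values without it are given for some results only. Without it, the member calls of comparisons that use it kept their direction. All but those of FZD2 against WT and WNT11 against VC cells in hypoxia stayed called. Adjusted p-values (Benjamini-Hochberg) are those of the quasi-likelihood F-test in edgeR over the 24873 genes with at least 10 counts, and a gene was called at an adjusted p under 0.01, the threshold of the study. In bulk RNA, fewer cells that express a gene and less of its RNA per cell cannot be told apart.

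Of the 47 members, 34 had at least 10 counts in total and were tested. They were 12 of 19 ligands, 11 of 12 receptors, 7 of 10 inhibitors, 2 of 4 R-spondins and both targets. WNT1, WNT3A, WNT8B, FZD10, DKK4, SFRP5, WIF1 and RSPO1 had 0 counts in all 24 libraries, and WNT2, WNT7A, WNT8A, WNT9B and RSPO4 had 1 to 9 counts in all. WNT6, WNT10A, WNT11, WNT16 and FRZB passed the count minimum mainly through VC libraries, so counts of called members are descriptions of the tested members and not of all 47.

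Promoters of 5 members are shown: those of WNT2B, SFRP4 and FZD8 because the RNA went in opposite directions in OE and KD cells, and those of DKK1 and LRP5 because it went in opposite directions in hypoxia. Each sequence holds the 250 bases before a RefSeq transcription start on GRCh38.p14, 5′ to 3′ on the strand of the gene. Capitals mark the core of the hypoxia response element, ACGTG or GCGTG, or of the TCF/LEF site, CTTTGA, on either strand. WNT2B has 2 listed starts, and its exons overlap ST7L on the opposite strand.

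WNT2B, upstream start (chr1:112466291-112466540, plus strand): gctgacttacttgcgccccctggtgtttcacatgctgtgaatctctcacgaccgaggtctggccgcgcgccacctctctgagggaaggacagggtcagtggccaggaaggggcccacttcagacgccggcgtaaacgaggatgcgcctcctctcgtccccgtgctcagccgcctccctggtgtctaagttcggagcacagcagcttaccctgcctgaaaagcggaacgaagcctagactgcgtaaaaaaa
WNT2B, downstream start (chr1:112508715-112508964, plus strand): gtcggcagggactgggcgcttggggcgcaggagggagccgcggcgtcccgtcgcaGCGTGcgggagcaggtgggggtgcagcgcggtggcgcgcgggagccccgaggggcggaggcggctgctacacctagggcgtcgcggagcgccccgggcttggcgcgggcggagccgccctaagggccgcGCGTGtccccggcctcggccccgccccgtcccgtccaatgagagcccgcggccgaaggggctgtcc
SFRP4 (chr7:37916818-37917067, minus strand): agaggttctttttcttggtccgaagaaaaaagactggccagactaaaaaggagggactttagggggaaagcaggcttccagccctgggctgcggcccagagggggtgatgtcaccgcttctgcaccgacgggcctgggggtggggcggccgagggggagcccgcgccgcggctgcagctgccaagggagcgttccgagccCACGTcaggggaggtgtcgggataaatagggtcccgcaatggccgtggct
FZD8 (chr10:35642297-35642546, minus strand): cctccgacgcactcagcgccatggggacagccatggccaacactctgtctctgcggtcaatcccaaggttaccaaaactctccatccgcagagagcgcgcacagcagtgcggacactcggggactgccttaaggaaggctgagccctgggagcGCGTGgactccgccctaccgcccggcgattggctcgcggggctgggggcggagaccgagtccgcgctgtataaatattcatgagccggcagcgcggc
DKK1 (chr10:52314031-52314280, plus strand, all of it in an exon of the noncoding antisense gene PRKG1-AS1): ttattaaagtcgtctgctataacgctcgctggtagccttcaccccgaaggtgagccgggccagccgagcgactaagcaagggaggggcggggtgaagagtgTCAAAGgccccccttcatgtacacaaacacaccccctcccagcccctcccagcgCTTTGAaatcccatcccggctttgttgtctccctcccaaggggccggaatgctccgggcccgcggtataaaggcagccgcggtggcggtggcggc
LRP5 (chr11:68312341-68312590, plus strand): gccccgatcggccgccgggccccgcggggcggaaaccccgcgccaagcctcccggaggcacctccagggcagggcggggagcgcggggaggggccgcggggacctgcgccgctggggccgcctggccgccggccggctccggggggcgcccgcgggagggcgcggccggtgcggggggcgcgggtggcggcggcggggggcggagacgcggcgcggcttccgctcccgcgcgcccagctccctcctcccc

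The downstream WNT2B window held GCGTG at 195 and 66 bases before the start, SFRP4 held ACGTG on the opposite strand at 50 bases, FZD8 held GCGTG at 97 bases, and DKK1 held the TCF/LEF core at 149 and 95 bases. The upstream WNT2B window and the LRP5 window held none of the 3 cores. LRP5, and FZD4 in normoxia, were also called in opposite directions in OE and KD cells. The FZD4 window, which is not shown, held none of the 3 cores either, so the windows shown are a selection. Over 35116 RefSeq promoter windows of the same length, 18.5% held ACGTG, 32.2% held GCGTG and 11.2% held CTTTGA, and over 35 windows of 32 member genes 5, 11 and 1 did. A match is a description of letters, not of a site that is used.

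Inhibitors and receptors had the highest levels in unmodified cells. Per kilobase of exon in WT normoxia, SFRP1 led with 67.9 ± 2.34 CPM, followed by DKK3 with 58.1 ± 0.484, FZD6 with 52.9 ± 3.82, DKK1 with 36.2, FZD2 with 24.5 and LRP5 with 24.1 CPM per kilobase (SD, n = 3). SFRP1 lay above its neighbours by more than their spread between libraries, while FZD2 and LRP5 did not differ beyond theirs. The exon length counts every base of any annotated exon, 11958 for DKK3 and 4733 for SFRP1. Which transcripts these cells use was not tested, so the order depends on that length. Without scaling to length, DKK3 was above SFRP1, at 698, 698 and 688 against 309, 324 and 331 CPM. The ligands with the highest level were WNT5B with 12.4 and WNT5A with 5.11 CPM per kilobase, and WNT2B was near the bottom with 0.385. In OE normoxia, the WNT2B level was 11.4 CPM per kilobase, above all other ligands there.

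**Figure D1:**
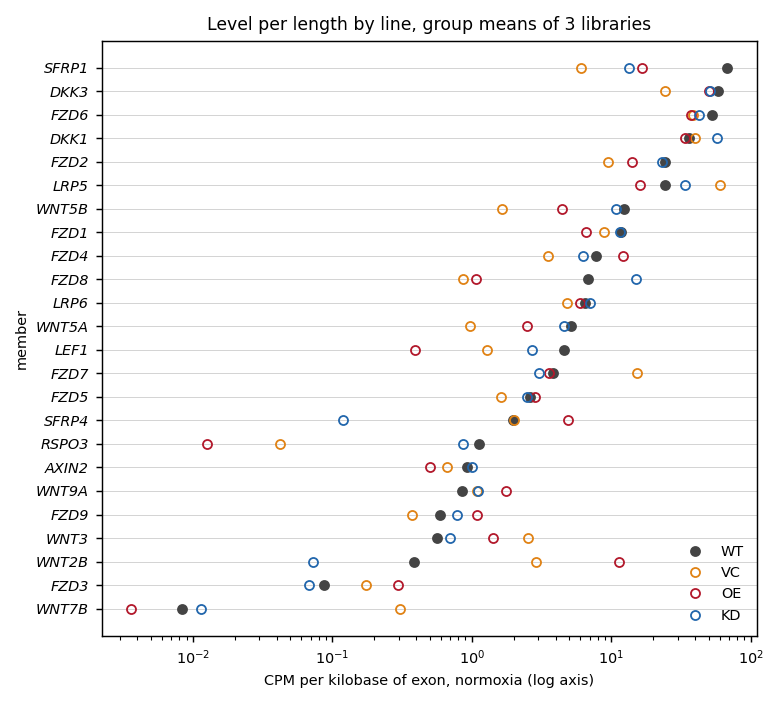
Level of 24 members in normoxia as mean CPM per kilobase of exon on a log axis, sorted by the WT value, with 1 point per line (means of 3 libraries, no error drawn). SFRP1 and DKK3 are highest in WT cells at 67.9 and 58.1, and WNT2B goes from 0.385 in WT to 11.4 in OE cells.

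In normoxia, 17 of 34 tested members were called between OE and WT cells, where 19.7% of all genes tested were. Of them, 6 were higher (9.48% of all genes) and 11 lower (10.2%). Between KD and WT cells, 10 members were called beside 16.3% of all genes, 3 higher (6.61%) and 7 lower (9.71%). VC cells differed from WT cells at 23 members beside 35.8%, 10 higher (19.8%) and 13 lower (16%), and OE cells from VC cells at 20 members beside 33.5%, 12 higher (15.4%) and 8 lower (18.1%). In hypoxia, OE and WT cells differed at 17 members beside 26.6%, 6 higher (13.6%) and 11 lower (13.0%), and KD and WT cells at 9 beside 18.2%, 4 higher (8.91%) and 5 lower (9.31%). VC and WT cells differed there at 22 members beside 39.9%, 8 higher (21.9%) and 14 lower (18.0%), and OE and VC cells at 23 beside 38.2%, 16 higher (17.9%) and 7 lower (20.3%). The median log2 change over the tested members in normoxia was -0.10 for OE, -0.04 for KD and -0.18 for VC against WT, where that over all genes was 0.00, 0.00 and 0.03. With members at 3 or fewer counts in 1 group placed at their bound, and members at 3 or fewer in both groups left out, these medians were -0.51, -0.17 and -0.39. They cover fewer members than the first medians, so the shift is not due to the bound alone. The 3 comparisons with WT share the WT libraries, so their calls are not independent of each other. FRZB and WNT11 at 1 oxygen level and WNT6 and WNT16 at both are among the members higher in VC than WT cells. WNT6, WNT11 and WNT16 are also among those lower in OE than VC cells. These genes passed the count minimum mainly through VC libraries, so the counts for VC cells are descriptions only.

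OE and WT cells were called apart in the same direction at both oxygen levels for 13 members (14.4% of all genes tested were), KD and WT cells for 8 (11.9%), VC and WT cells for 19 (29.1%) and OE and VC cells for 16 (27.3%). WNT6 and WNT16 are among the 19 and WNT6 among the 16, with the same limit. FZD1 alone was called in opposite directions, lower in OE than VC cells in normoxia and higher in hypoxia.

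**Figure D2:**
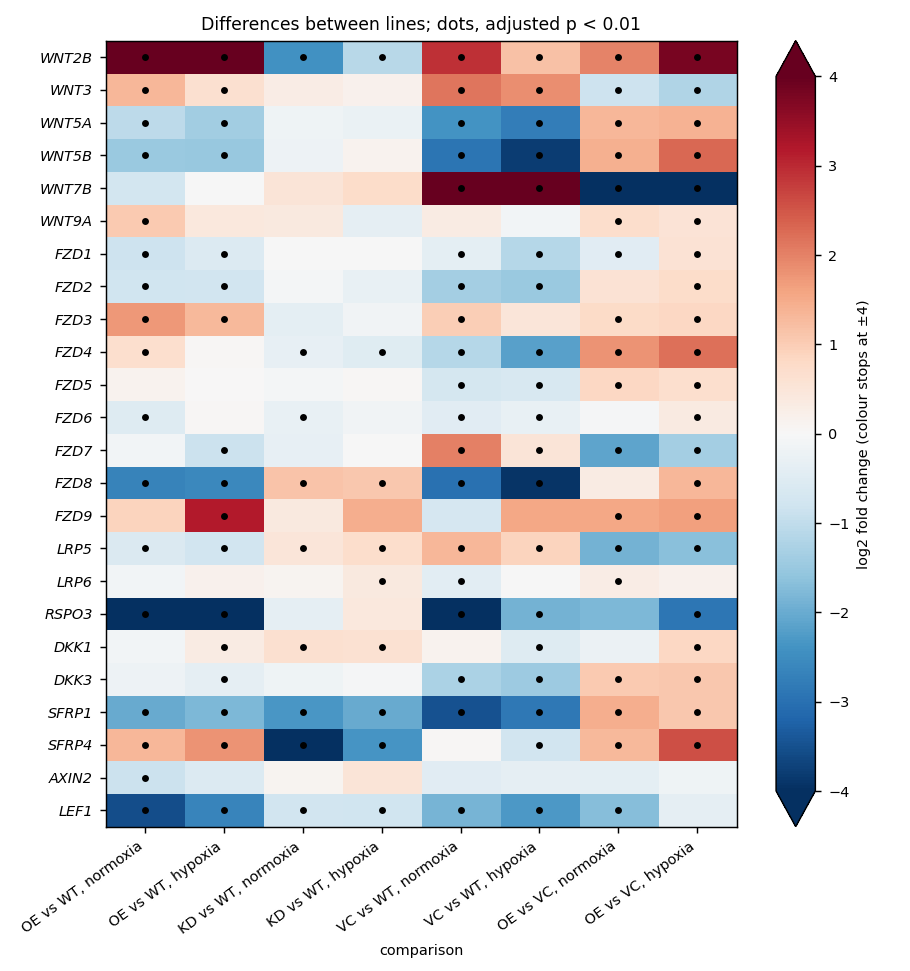
Log2 fold change of 24 members between lines in 8 comparisons, with red for higher and blue for lower in the line named first and dots at an edgeR adjusted p under 0.01. WNT2B is red against WT in OE and VC cells and blue in KD cells, SFRP1 is blue in all 3 against WT, and 10 members below 1 CPM in every group are left out.

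In a joint test of KD, WT and OE cells, in the order of rising EMP2, 19 members differed in normoxia (31.4% of all genes did) and 21 in hypoxia (38.0%). WNT2B, SFRP4, FZD3 and FZD4 had means that rose from KD through WT to OE in both conditions, joined in hypoxia by WNT9A. FZD8, LRP5 and AXIN2 had means that went down along that order in both conditions, joined by DKK1 in normoxia and by RSPO3 and WNT5B in hypoxia. The rest, 11 members in normoxia and 11 in hypoxia, had their highest or lowest mean in WT cells. The F-test asks only whether the 3 means differ, not for a trend, and not every step was called. For FZD4 in hypoxia, OE libraries at 80.6, 80.9 and 69.7 CPM overlapped WT libraries at 78.2, 73.0 and 73.0 CPM. OE and WT cells were not called apart there. Other steps from WT that were not called include FZD3 and AXIN2 in KD cells and DKK1 in OE normoxia. AXIN2 and WNT9A in OE hypoxia and RSPO3 and WNT5B in KD hypoxia were not called either. The share of all genes with these orders was not counted.

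WNT2B, a ligand of the beta-catenin branch that is expressed at the margin of the developing eye, changed more than any other ligand between OE and WT cells. Its gene lies on chromosome 1 from 112466541 to 112530165 (GRCh38, GENCODE v44). In WT normoxia its level was 3.84, 4.58 and 5.88 CPM, in OE normoxia 141, 142 and 140 CPM, in VC normoxia 39.1, 39.4 and 29.3 CPM and in KD normoxia 0.616, 0.726 and 1.33 CPM. None of these 4 groups overlapped. OE cells were 29.9-fold above WT cells (log2 4.90 ± 0.15, standard error, edgeR adjusted p = 1.64e-20) and 3.92-fold above VC cells (edgeR adjusted p = 5.36e-14), VC cells were 7.64-fold above WT cells (edgeR adjusted p = 6.90e-16), and KD cells were 5.31-fold below them (edgeR adjusted p = 6.73e-09). In hypoxia the levels were 3.16, 2.74 and 2.17 CPM in WT, 82.7, 85.9 and 84.9 in OE, 5.47, 6.87 and 5.95 in VC and 0.788, 1.34 and 1.68 CPM in KD libraries, again with no overlap. OE cells stayed 31.1-fold above WT and were 13.8-fold above VC cells, while the KD difference was 2.17-fold (edgeR adjusted p = 0.00168) and was no longer called without KD library 1 (edgeR adjusted p = 0.023) or WT library 1 (edgeR adjusted p = 0.015). Exons of ST7L on the opposite strand cover 21.5% of the exon bases of WNT2B, and whether reads were counted by strand is not given. ST7L was at 18.2 ± 1.20 CPM in WT, 23.2 ± 0.528 in OE, 17.3 ± 0.610 in VC and 20.7 ± 0.927 CPM in KD normoxia (SD, n = 3), and its part in the WNT2B counts was not tested.

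WNT5A and WNT5B, the related ligands that mainly act without beta-catenin, were lower in OE and VC cells and close to WT in KD cells. WNT5A was at 38.9, 35.7 and 35.1 CPM in WT, 17.0, 17.8 and 18.3 in OE, 7.28, 7.67 and 5.95 in VC and 34.8, 32.2 and 31.1 CPM in KD normoxia. The WT and KD libraries neighboured each other and the OE and VC libraries lay below, OE by 2.07-fold (edgeR adjusted p = 2.20e-10) and VC by 5.22-fold (edgeR adjusted p = 5.25e-18). WNT5B was at 54.7, 54.5 and 49.0 CPM in WT, 19.4, 17.6 and 19.1 in OE, 7.08, 7.12 and 6.87 in VC and 44.6, 48.7 and 45.1 CPM in KD normoxia. It was 2.83-fold lower in OE and 7.50-fold lower in VC than in WT cells (edgeR adjusted p = 2.47e-11 and 2.89e-17), and the KD difference was not called (log2 -0.19 ± 0.11, edgeR adjusted p = 0.270). Set against their vector control, OE cells had more of both ligands, 2.52-fold for WNT5A and 2.65-fold for WNT5B (edgeR adjusted p = 1.04e-11 and 8.56e-10). The direction for OE cells thus depended on which control line was used. In hypoxia WNT5A was at 64.2, 59.1 and 64.1 CPM in WT, 22.3, 25.8 and 23.2 in OE, 8.08, 10.8 and 8.50 in VC and 48.9, 53.7 and 51.9 CPM in KD libraries, and WNT5B at 45.3, 43.2 and 40.7, 10.8, 19.4 and 14.3, 3.17, 3.41 and 2.55 and 51.2, 50.6 and 41.1 CPM in these lines. OE libraries again lay between VC and WT libraries for both.

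WNT3, a beta-catenin ligand, was highest in VC cells, at 15.0, 13.4 and 12.6 CPM in normoxia against 3.51, 2.85 and 2.80 CPM in WT, 7.33, 8.83 and 6.76 CPM in OE and 3.58, 3.32 and 4.44 CPM in KD libraries. VC was 4.45-fold and OE 2.50-fold above WT cells (edgeR adjusted p = 5.56e-13 and 7.52e-08), and the KD and WT ranges overlapped. WNT9A was at 3.90, 3.20 and 3.15 CPM in WT and 6.71, 7.28 and 7.11 CPM in OE normoxia, 2.05-fold higher (edgeR adjusted p = 2.69e-06), and its difference from VC cells was 1.63-fold (edgeR adjusted p = 0.000252). The VC libraries were at 4.40, 3.71 and 4.89 CPM and the KD libraries at 4.50, 4.25 and 4.64 CPM of WNT9A, and neither line was called apart from WT.

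Several ligands were counted almost only in VC cells. WNT7B had 23, 34 and 23 counts in VC normoxia and 106, 102 and 84 in VC hypoxia, against 0 to 7 counts in each of the other 18 libraries. Its ratio of VC to WT in normoxia was 40.9, with a 95% counting interval of 11.0 to 343, from 80 against 2 counts. WNT6 had 8, 9 and 3 counts in VC normoxia and 13, 15 and 9 in VC hypoxia, and 1 count in the other libraries together. VC cells had at least 6.81-fold more WNT6 than WT cells in normoxia and at least 11.7-fold more in hypoxia, with 3 counts over the group as the limit. WNT16 had 3 to 8 counts per VC library, WNT11 2 to 4 and WNT10A 0 to 3, with 0 in the other 18 libraries. At these counts the calls of WNT11 and WNT16 did not hold when single libraries were left out, WNT11 in hypoxia reaching an edgeR adjusted p of 0.025 without WT library 1. WNT4 had 47 counts in VC normoxia and 7 in WT normoxia, called higher in VC cells (edgeR adjusted p = 0.000152). WNT10B had 0 to 10 counts per library and was called in no comparison.

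**Figure D3:**
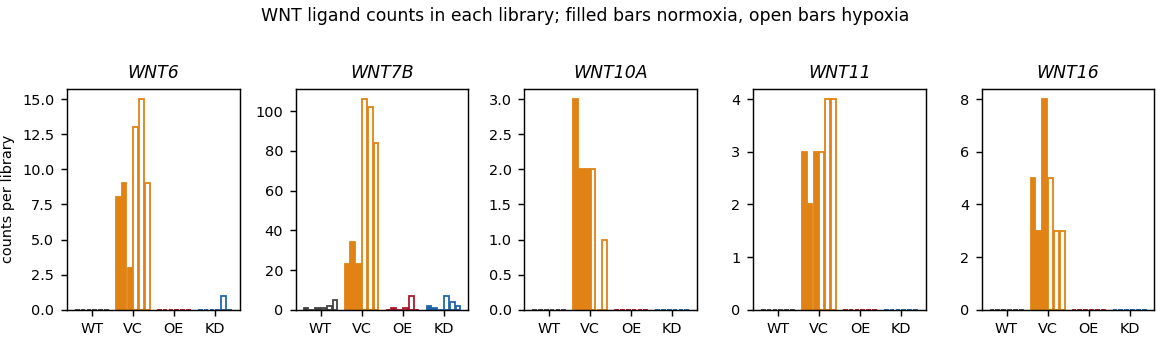
Counts of 5 WNT ligands in each of 24 libraries, with filled bars for normoxia and open bars for hypoxia and the vertical axis scaled for each gene. Bars stand almost only over VC, from 23 to 106 counts for WNT7B and 3 to 15 for WNT6.

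Among the receptors, FZD8 fell in OE and VC cells and rose in KD cells. FZD8 was at 30.5, 27.4 and 25.1 CPM in WT, 3.79, 4.58 and 4.74 in OE, 3.32, 3.56 and 3.57 in VC and 65.1, 64.0 and 53.9 CPM in KD normoxia. OE cells were 6.34-fold and VC cells 7.93-fold below WT, KD cells were 2.20-fold above (edgeR adjusted p = 1.19e-15, 6.79e-17 and 3.24e-09), and OE and VC cells were not called apart in normoxia (log2 0.32 ± 0.18, edgeR adjusted p = 0.151). In hypoxia FZD8 was at 34.0, 35.2 and 29.9 CPM in WT, 3.80, 6.60 and 6.01 in OE, 2.61, 2.10 and 1.84 in VC and 75.2, 71.6 and 60.6 CPM in KD libraries, without overlap, with KD cells 2.10-fold above and OE cells 5.92-fold below WT.

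LRP5, the co-receptor for beta-catenin signalling, lies on chromosome 11 from 68312591 to 68449275. It was at 149, 151 and 147 CPM in WT, 98.9, 96.3 and 105 in OE, 377, 370 and 371 in VC and 202, 204 and 219 CPM in KD normoxia, with no overlap among the groups. OE was 1.49-fold below WT and 3.72-fold below VC cells (edgeR adjusted p = 0.000680 and 3.61e-12), and KD and VC were 1.40-fold and 2.50-fold above WT (edgeR adjusted p = 0.00401 and 1.74e-09). The KD call in normoxia was lost without KD library 3 (log2 0.48, edgeR adjusted p = 0.011). The related co-receptor LRP6 was at 69.2, 64.9 and 66.2 CPM in WT, 58.8, 63.9 and 63.9 in OE, 48.6, 49.3 and 52.6 in VC and 70.6, 65.8 and 81.1 CPM in KD normoxia, with the VC libraries below all others.

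FZD7 was at 68.8, 75.0 and 67.8 CPM in VC normoxia, against 19.6, 16.5 and 16.6 in WT, 17.9, 14.4 and 16.9 in OE and 13.6, 14.6 and 13.3 CPM in KD libraries. VC cells stood apart, 4.02-fold above WT (edgeR adjusted p = 5.27e-17). FZD4, which binds the non-WNT ligand norrin as well as WNT proteins, was at 58.0, 59.8 and 53.3 CPM in WT, 87.3, 92.7 and 90.2 in OE, 25.8, 28.5 and 23.7 in VC and 47.1, 43.9 and 46.9 CPM in KD normoxia. No groups overlapped, with OE 1.58-fold above and VC 2.19-fold below WT cells (edgeR adjusted p = 2.75e-08 and 3.20e-13). The smaller KD difference, log2 -0.31 ± 0.08, was lost without any 1 of 5 of the 6 libraries compared, with an edgeR adjusted p of up to 0.0586. PRSS23 on the opposite strand covers 18.9% of the FZD4 exon bases. It was at 1951 ± 28.7 CPM in WT, 1289 ± 40.2 in OE, 715 ± 17.8 in VC and 1555 ± 31.6 CPM in KD normoxia (SD, n = 3), so that it was lower in OE cells, where FZD4 was higher, and lower in VC cells, where FZD4 was lower. Its part in the FZD4 counts was not tested.

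FZD3 was scarce but rose in OE cells, from 1.32, 1.37 and 0.932 CPM in WT to 3.36, 4.52 and 4.32 CPM in OE normoxia, 3.31-fold (edgeR adjusted p = 1.77e-07), with VC libraries at 2.23, 2.66 and 2.31 CPM and KD libraries at 0.925, 0.934 and 0.952 CPM. FZD1 was at 83.8, 84.3 and 73.0 CPM in WT, 43.2, 45.5 and 47.1 in OE, 61.7, 65.1 and 57.2 in VC and 86.1, 82.4 and 70.9 CPM in KD normoxia. OE libraries lay below all others, 1.78-fold below WT (edgeR adjusted p = 1.58e-08), and WT and KD libraries overlapped. In hypoxia OE libraries, at 51.9, 69.5 and 57.6 CPM, lay above VC libraries, at 38.9, 41.4 and 40.0 CPM.

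FZD2 was at 99.1, 99.4 and 79.1 CPM in WT, 60.6, 57.0 and 43.1 in OE, 38.1, 40.5 and 28.8 in VC and 95.2, 93.9 and 71.8 CPM in KD normoxia. FZD2 was 2.58-fold lower in VC and 1.73-fold lower in OE than in WT cells (edgeR adjusted p = 5.90e-06 and 0.00294), and the OE call was lost in normoxia without OE library 3 (edgeR adjusted p = 0.013) and in hypoxia without OE library 1 (log2 -0.58, edgeR adjusted p = 0.0107) or WT library 2 (edgeR adjusted p = 0.0117). Between OE and VC cells in normoxia, FZD2 had a log2 difference of 0.58 that was not called (edgeR adjusted p = 0.0196) but passed with the replicate number as a block (edgeR adjusted p = 0.00572). FZD5 was at 18.4, 21.5 and 15.0 CPM in WT, 21.0, 21.6 and 17.4 in OE, 12.1, 10.8 and 11.0 in VC and 18.8, 18.0 and 15.7 CPM in KD normoxia. VC libraries lay below all others, 1.62-fold below WT (edgeR adjusted p = 2.38e-05), and VC cells were also called lower in hypoxia (edgeR adjusted p = 8.34e-05), while OE and KD cells were not called apart from WT. FZD6, the receptor with the highest level per kilobase in WT normoxia, was at 219, 198 and 228 CPM in WT, 147, 152 and 153 in OE, 143, 157 and 168 in VC and 172, 169.6 and 181 CPM in KD normoxia. The WT libraries lay above the rest. FZD6 was 1.43-fold lower in OE and 1.38-fold lower in VC normoxia (edgeR adjusted p = 1.27e-05 and 2.86e-05). Its KD call, log2 -0.30 ± 0.08, was lost without any 1 of the 6 libraries compared, with an edgeR adjusted p of 0.0179 to 0.147.

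FZD9 was scarce, at 1.87, 1.27 and 1.00 CPM in WT, 2.80, 2.26 and 2.65 in OE, 1.21, 0.802 and 0.595 in VC and 2.59, 1.87 and 1.02 CPM in KD normoxia. OE cells were called higher than VC cells (log2 1.55 ± 0.41, edgeR adjusted p = 0.00256), a call lost without OE library 1 (edgeR adjusted p = 0.011), VC library 2 (edgeR adjusted p = 0.0149) or VC library 3 (edgeR adjusted p = 0.0209). In hypoxia FZD9 had 1, 4 and 1 counts in WT, 6, 30 and 21 in OE, 11, 4 and 4 in VC and 7, 5 and 4 counts in KD libraries. OE cells were called above WT there (log2 3.16 ± 0.58, edgeR adjusted p = 4.98e-05, log2 3.48 without OE library 1), which rests on 6 WT counts and was lost with only the libraries compared (edgeR adjusted p = 0.0138). The OE and VC ranges in hypoxia overlapped, and the call between them (log2 1.63 ± 0.48, edgeR adjusted p = 0.00573) was lost without any 1 of 4 of the 6 libraries, with an edgeR adjusted p of 0.0165 to 0.0479.

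RSPO3, an R-spondin that amplifies WNT signals and is expressed by mesenchymal and vascular cells, was nearly lost in OE cells and low in VC cells. It had 90, 105 and 90 counts in WT normoxia, 1, 1 and 1 in OE, 2, 10 and 0 in VC and 73, 92 and 57 counts in KD normoxia. The WT and KD libraries lay far above the others. The ratio of WT to OE was 89.0, with a 95% counting interval of 30.1 to 434. In hypoxia the OE libraries had 2, 2 and 1 counts and the WT libraries 55, 52 and 44 (log2 -4.78 ± 0.46, edgeR adjusted p = 5.49e-10). The VC libraries had 18, 17 and 8 counts in hypoxia. VC cells were called lower than WT at both oxygen levels, and OE cells lower than VC cells in hypoxia only. RSPO2 had 0 to 3 counts per library and was called nowhere. Exons of an unnamed gene on the opposite strand cover 15.7% of RSPO3.

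SFRP1, an inhibitor that binds WNT ligands, fell in all 3 modified lines. It was at 309, 324 and 331 CPM in WT, 76.7, 80.7 and 80.1 in OE, 69.2, 62.3 and 59.7 in KD and 30.4, 31.4 and 25.1 CPM in VC normoxia. The WT libraries stood far above and the 4 groups did not overlap. SFRP1 was 4.06-fold lower in OE, 5.04-fold lower in KD and 11.1-fold lower in VC than in WT cells (edgeR adjusted p = 6.46e-19, 7.18e-20 and 5.75e-24). In hypoxia it was at 351, 347 and 347 CPM in WT, 97.9, 101 and 100.4 in OE, 82.3, 86.8 and 88.7 in KD and 52.7, 47.0 and 42.9 CPM in VC libraries, the same order. OE cells were 2.73-fold above VC cells in normoxia and 2.10-fold above them in hypoxia (edgeR adjusted p = 2.59e-15 and 1.15e-12), so that SFRP1 too lay on opposite sides of the 2 controls.

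SFRP4, a related inhibitor, was higher in OE and lower in KD than in WT cells. It was at 7.19, 6.25 and 7.24 CPM in WT, 17.6, 17.8 and 16.2 in OE, 7.21, 7.67 and 6.21 in VC and 0.431, 0.259 and 0.571 CPM in KD normoxia. VC and WT libraries overlapped, OE was 2.50-fold above and KD 16.4-fold below WT (edgeR adjusted p = 9.41e-08 and 2.50e-13), and the VC difference was log2 0.04 ± 0.17. In hypoxia OE was at 15.6, 18.9 and 18.9 CPM, WT at 4.49, 5.48 and 5.44, VC at 2.74, 3.24 and 3.05 and KD at 0.394, 1.60 and 1.01 CPM, with OE 3.47-fold above and KD 5.08-fold below WT (edgeR adjusted p = 3.92e-10 and 5.57e-09).

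DKK1, which blocks LRP5 and LRP6, was at 123, 130 and 127 CPM in KD normoxia, above 80.2, 78.5 and 82.6 CPM in WT, 68.2, 74.3 and 82.1 CPM in OE and 82.7, 87.8 and 93.9 CPM in VC libraries. Only KD was called against WT there, 1.58-fold higher (edgeR adjusted p = 2.39e-07), and in hypoxia KD was 1.52-fold higher (edgeR adjusted p = 2.69e-06). The OE increase over WT in hypoxia, log2 0.33 ± 0.09, was lost without OE library 2 (edgeR adjusted p = 0.046), WT library 1 (edgeR adjusted p = 0.038) or WT library 2 (edgeR adjusted p = 0.023). DKK3, a divergent Dickkopf protein, was 2.39-fold lower in VC than in WT cells (edgeR adjusted p = 1.61e-14), at 309, 298 and 266 CPM against 698, 698 and 688 CPM, and was at 630, 606 and 565 CPM in OE and 615, 636 and 596 CPM in KD normoxia. USP47 covers 47.5% of the DKK3 exon bases from the opposite strand and was at 79.9 ± 6.61 CPM in WT and 115 ± 4.95 CPM in VC normoxia (SD, n = 3), the opposite direction, and its part was not tested. DKK2 had 12, 15 and 4 counts in WT and 0, 0 and 2 in KD normoxia. Its call rests on those few counts and was lost without any 1 of 4 of the 6 libraries, with an edgeR adjusted p of 0.022 without KD library 1. FRZB had 3, 5 and 3 counts in VC normoxia and 0 in WT normoxia, at least 3.75-fold more, a call that was lost without any 1 of 5 of the 6 libraries (edgeR adjusted p of 0.0177 to 0.0347). SFRP2 had 0 to 6 counts per library.

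LEF1, a nuclear partner of beta-catenin and itself a target of the pathway, fell in all 3 modified lines. It was at 25.8, 24.1 and 24.3 CPM in WT, 2.36, 2.04 and 1.88 in OE, 7.47, 6.47 and 6.68 in VC and 16.5, 14.5 and 12.4 CPM in KD normoxia, without overlap. The drop was 11.7-fold in OE, 3.60-fold in VC and 1.71-fold in KD cells (edgeR adjusted p = 3.33e-17, 1.66e-12 and 2.47e-05), and OE cells were also 3.26-fold below VC cells (edgeR adjusted p = 1.89e-09). In hypoxia LEF1 was at 1.49, 2.16 and 3.20 CPM in OE, 3.23, 3.18 and 2.41 in VC and 8.28, 8.68 and 8.48 CPM in KD libraries, and OE and VC cells, whose ranges overlapped, were not called apart (log2 -0.35 ± 0.20, edgeR adjusted p = 0.149). AXIN2, a negative feedback target, was at 4.39, 4.73 and 5.23 CPM in WT and 2.49, 2.59 and 2.79 CPM in OE normoxia, 1.82-fold lower (edgeR adjusted p = 0.000545). VC libraries were at 3.13, 4.11 and 3.11 CPM. KD libraries, at 5.18, 5.14 and 5.21 CPM, were not called apart from WT (log2 0.12 ± 0.18).

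**Figure D4:**
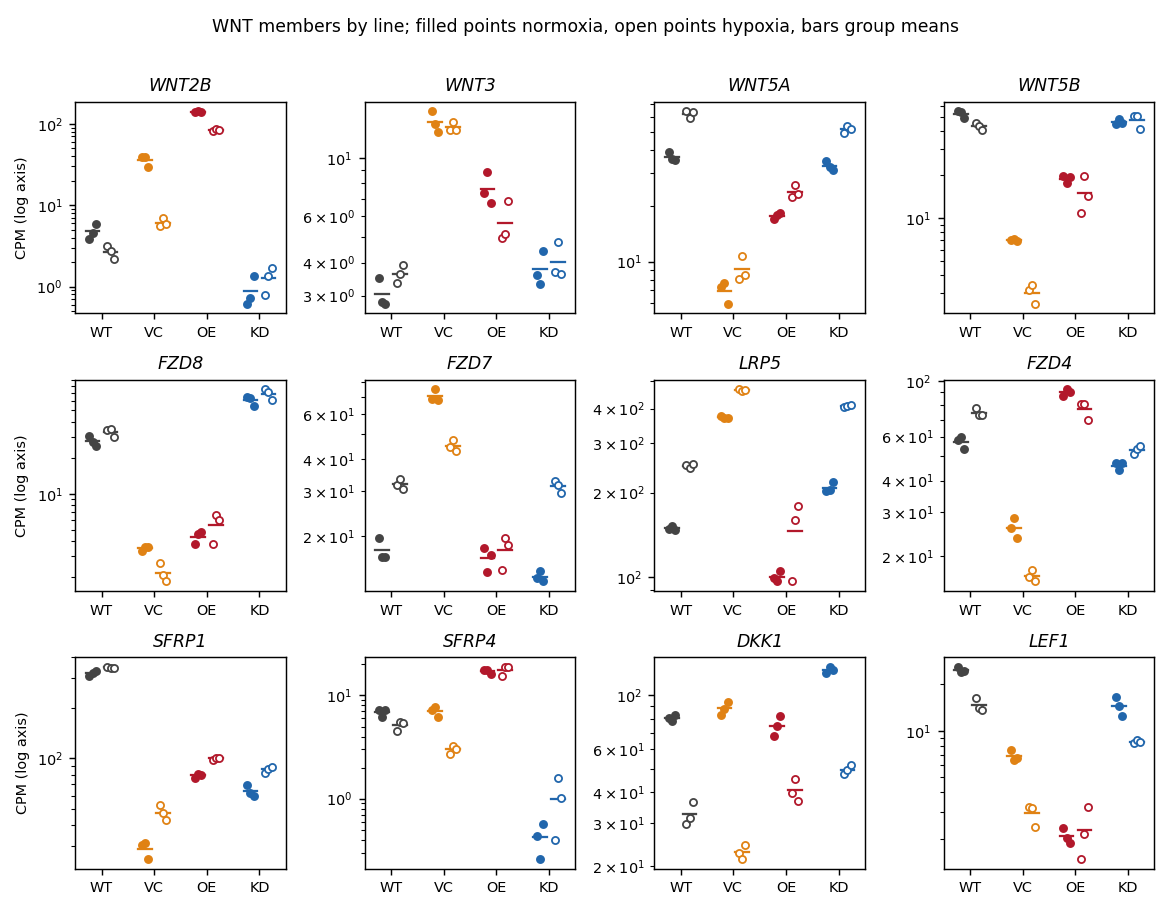
CPM in each library for 12 members on log axes, by line, with filled points for normoxia, open points for hypoxia and bars for means of 3 libraries. WNT2B separates all 4 lines within each oxygen level, but not across them. SFRP1 sits at 309 to 351 CPM in WT and at or below 101 in the rest, and DKK1 falls in hypoxia in every line.

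Between hypoxia and normoxia, 12 members were called in WT cells beside 21.1% of all genes, 6 higher (9.86%) and 6 lower (11.2%). In VC cells 14 were called beside 21.0%, 4 higher (10.3%) and 10 lower (10.7%), in OE cells 8 beside 13.9%, 5 higher (6.47%) and 3 lower (7.40%), and in KD cells 10 beside 19.1%, 6 higher (10.4%) and 4 lower (8.72%). Without OE library 1 in hypoxia, 9 members were called in OE cells, beside 3970 genes in place of 3449. With only the 6 OE libraries fitted, 762 genes and 3 members were called, 0 higher and 3 lower, so that the rises of FZD1, FZD3, LRP5, SFRP1 and WNT5A in OE cells were lost (edgeR adjusted p of 0.0143 to 0.119). DKK1 and FZD6 fell and FZD3 rose in each of the 4 lines. LRP5 and WNT5A rose in WT, OE and KD cells, WNT2B fell in WT, VC and OE cells, LEF1 fell in WT, VC and KD cells, SFRP1 rose in VC, OE and KD cells, and AXIN2 fell in WT and VC cells. The SFRP1 call in OE cells was lost without OE library 1 of normoxia (edgeR adjusted p = 0.0114), and the AXIN2 call in VC cells without any 1 of 3 VC libraries (edgeR adjusted p of 0.0193 to 0.049).

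DKK1 fell from 80.2, 78.5 and 82.6 CPM in WT normoxia to 29.8, 31.3 and 36.6 CPM in hypoxia, without overlap. The drop was 2.47-fold in WT, 3.87-fold in VC, 1.83-fold in OE and 2.56-fold in KD cells (edgeR adjusted p = 4.95e-13, 1.67e-16, 6.24e-09 and 1.95e-13). Exons of PRKG1-AS1 cover 10.2% of DKK1 on the opposite strand, and that gene was at or below 1.90 CPM in every library. FZD6 fell from 219, 198 and 228 CPM to 85.8, 88.4 and 105 CPM in WT cells, 2.31-fold, and by 2.06-fold in VC and KD cells and 1.55-fold in OE cells (edgeR adjusted p at most 1.52e-06). FZD3 rose from 0.932 to 1.37 CPM in WT normoxia to 2.80 to 3.41 CPM in hypoxia, 2.53-fold, with 1.79-fold in VC, 1.88-fold in OE and 3.03-fold in KD cells, and the VC call was lost without VC library 2 in hypoxia (edgeR adjusted p = 0.024).

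LRP5 rose from 149, 151 and 147 CPM to 252, 244 and 253 CPM in WT cells and from 202, 204 and 219 to 405, 408 and 410 CPM in KD cells, by 1.67-fold and 1.96-fold (edgeR adjusted p = 2.98e-05 and 7.92e-07). The OE libraries in hypoxia were at 96.6, 160 and 180 CPM, of which the first, the library that stood apart, overlapped the normoxia range. The OE change was log2 0.54 ± 0.12 with it and 0.77 without it. The call was lost without OE library 3 in hypoxia (log2 0.36, edgeR adjusted p = 0.015) or OE library 2 in normoxia (edgeR adjusted p = 0.011). WNT5A rose by 1.71-fold in WT, 1.35-fold in OE and 1.58-fold in KD cells, and in VC cells its change of log2 0.39 ± 0.11 was not called (edgeR adjusted p = 0.0102).

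WNT2B fell 5.88-fold in VC cells, from 39.1, 39.4 and 29.3 to 5.47, 6.87 and 5.95 CPM (edgeR adjusted p = 6.73e-14). The drop was 1.67-fold in OE cells and 1.73-fold in WT cells, and the WT call was lost without WT library 3 of normoxia (log2 -0.62, edgeR adjusted p = 0.027) or of hypoxia (edgeR adjusted p = 0.022), or WT library 2 of hypoxia (edgeR adjusted p = 0.011). LEF1 fell from 25.8, 24.1 and 24.3 to 16.3, 13.9 and 13.6 CPM in WT cells, 1.69-fold, and was at 1.88 to 2.36 CPM in OE normoxia and 1.49 to 3.20 CPM in OE hypoxia, a change that was not called (log2 0.14 ± 0.21). FZD7 rose 1.81-fold in WT and 2.26-fold in KD cells and fell 1.57-fold in VC cells (edgeR adjusted p = 3.38e-08, 1.52e-10 and 1.36e-06). FZD9 fell in WT cells from 34, 25 and 14 counts to 1, 4 and 1 counts and in KD cells from 42, 36 and 16 to 7, 5 and 4 counts. WNT7B rose 3.88-fold in VC cells (edgeR adjusted p = 0.000412). FZD8 had a log2 change of -0.67 in VC cells that was not called (edgeR adjusted p = 0.0105) but passed with the replicate number as a block (edgeR adjusted p = 0.00707). SFRP4 rose in KD cells by log2 1.27 ± 0.37 (edgeR adjusted p = 0.00875), from 7, 5 and 9 counts to 6, 25 and 12, and the call was lost without KD library 2 of hypoxia (log2 0.69, edgeR adjusted p = 0.344) and without any 1 of 3 other KD libraries (edgeR adjusted p of 0.0213 to 0.0865).

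**Figure D5:**
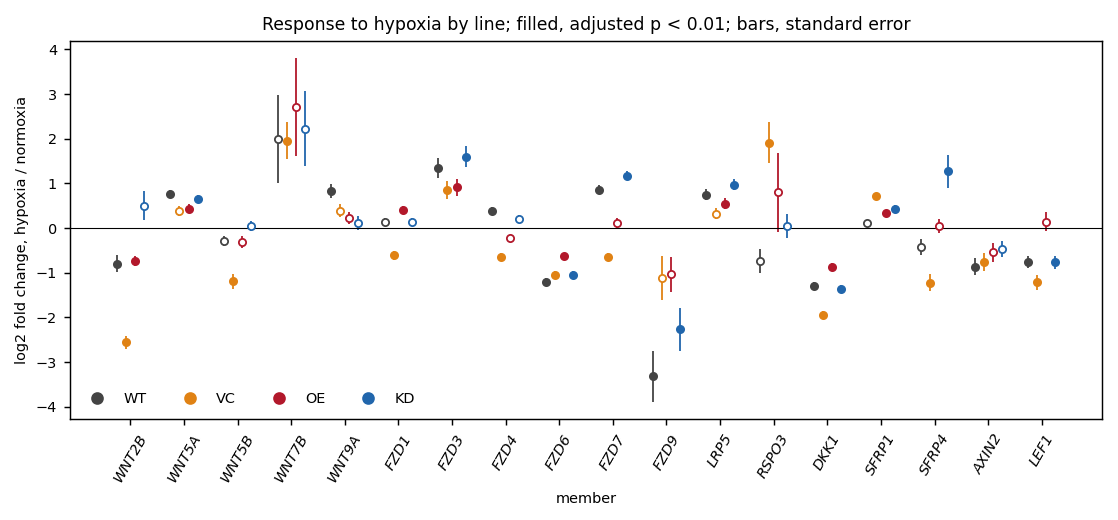
Log2 fold change of hypoxia against normoxia, with standard errors, for the 18 members of the heat map called in at least 1 line, coloured by line and filled at an edgeR adjusted p under 0.01. DKK1 and FZD6 lie below 0 and FZD3 above 0 in all 4 lines, and WNT2B in VC cells reaches -2.56.

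The response to hypoxia itself was compared between the lines as an interaction. Here higher and lower give the sign of the difference of log2 changes, not the size of the response. Against WT cells, the response of OE cells differed at 3 members beside 6.18% of all genes, 1 higher (3.33%) and 2 lower (2.85%). That of VC cells differed at 9 beside 8.02%, 2 higher (4.49%) and 7 lower (3.53%). For KD cells edgeR called 0 members beside 0.985% (0.675% higher and 0.310% lower), with 8 members at an unadjusted p under 0.05 and 1 called by DESeq2. Between OE and VC cells 8 members differed beside 5.13%, all 8 higher in OE cells by that sign (2.42% higher and 2.72% lower over all genes). DKK1, 1 of these 8, fell in both lines and fell less in OE cells. FZD7 was called in 3 of these comparisons, with a response lower than in WT cells by 0.75 in OE and by 1.51 in VC cells on the log2 scale. WNT2B fell more in VC cells than in WT cells by 1.76 and than in OE cells by 1.82 on the log2 scale (edgeR adjusted p = 1.12e-05 and 7.38e-08).

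Of 56 other genes of the pathway, listed by role and not by change but with earlier results of these data known, 53 were tested. OE cells differed from WT cells in normoxia at 11 higher (9.48% of all genes) and 11 lower (10.2%) of them, KD cells at 6 higher (6.61%) and 16 lower (9.71%), and VC cells at 15 higher (19.8%) and 15 lower (16%). Among receptors, LGR4, which binds R-spondins, was at 37.3 ± 4.85 CPM in WT, 248 ± 1.15 in OE, 79.8 ± 4.96 in VC and 17.7 ± 2.97 CPM in KD normoxia (SD, n = 3), higher in OE and lower in KD cells (edgeR adjusted p = 2.31e-20 and 2.84e-10). ROR2, a receptor of WNT5A, was at 9.67 ± 0.887 CPM in WT, 0.390 ± 0.284 in OE, 5.58 ± 0.593 in VC and 3.83 ± 0.495 CPM in KD normoxia (SD, n = 3). It was lower than in WT in all 3 lines, by log2 -4.60 in OE, -0.78 in VC and -1.33 in KD cells (edgeR adjusted p = 3.46e-15, 0.00022 and 4.28e-07), and in hypoxia all 3 were called lower too. KREMEN2, a receptor of Dickkopf proteins, had 189 counts in WT, 3 in OE, 201 in VC and 59 in KD normoxia, and was called lower in OE and KD cells (edgeR adjusted p = 1.51e-09 and 0.000718). TRABD2B, a protease that inactivates WNT proteins, had 14 counts in WT, 465 in OE, 186 in VC and 1 in KD normoxia. It was called higher in OE and VC cells and lower in KD cells than in WT (edgeR adjusted p = 8.68e-14, 9.92e-11 and 0.00207). NOTUM, an enzyme that removes the lipid of WNT proteins and a target of the pathway in other tissues, had 678 counts in VC normoxia and 4 in WT, 0 in OE and 7 in KD normoxia.

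In the cytoplasm CTNNB1, the gene of beta-catenin, had a log2 change in normoxia of -0.26 between OE and WT cells and of 0.25 between KD and WT cells (edgeR adjusted p = 0.00608 and 0.00824). Of the 12 cytoplasmic genes tested, APC was the only other one called between OE and WT cells there, higher in OE. Between KD and WT normoxia, APC and BTRC were called higher and CSNK1E lower. In hypoxia CTNNB1 was called higher in KD than WT cells and was not called between OE and WT cells. The CTNNB1 changes in normoxia were small and near the threshold, and fits with libraries left out are given for members only. TCF7L1, a nuclear partner that often represses targets, was at 4.99 ± 0.576 CPM in WT, 1.89 ± 0.784 in OE and 28.6 ± 2.13 CPM in KD normoxia (SD, n = 3), lower in OE and higher in KD cells (edgeR adjusted p = 0.000244 and 1.65e-09). CELSR3, VANGL2 and PRICKLE1 act in planar polarity. VANGL2 was lower than in WT in all 3 lines, at 35.0 ± 2.74 CPM in WT, 6.92 ± 1.10 in OE, 7.30 ± 0.905 in VC and 20.0 ± 2.72 CPM in KD normoxia (SD, n = 3). CELSR3 was lower in OE and VC cells, at 9.31 ± 1.96 and 20.5 ± 0.940 CPM against 36.4 ± 2.63 CPM in WT normoxia (SD, n = 3). PRICKLE1 had 6 counts in WT, 181 in OE, 1157 in VC and 0 in KD normoxia. CTHRC1, a secreted WNT cofactor, had 0 counts in WT and KD, 106 in OE and 1443 in VC normoxia. SP5 was lower in OE, KD and VC cells, and CCND1 was higher in OE and lower in KD and VC cells. TNFRSF19 was at 17.2 ± 0.746 CPM in WT, 105 ± 5.33 in OE, 42.1 ± 1.62 in VC and 2.24 ± 0.198 CPM in KD normoxia (SD, n = 3). In hypoxia PORCN, which attaches the lipid to WNT proteins, rose in WT, VC and KD cells, by 1.30 on the log2 scale in WT cells (edgeR adjusted p = 3.19e-08), and ZNRF3, which removes Frizzled receptors from the surface, fell in all 4 lines.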

How the data were processed

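RNA of ARPE-19 cells (WT, VC, OE and KD, normoxia and hypoxia, 3 libraries each, 24 in all) was sequenced by the authors after ribosomal RNA depletion. The deposited counts are whole reads per gene, not normalized, which the authors made from reads of 50 bases with STAR 2.27a on GRCh38. The heading of their alignment report names Ensembl 98, the paper another transcript set, and the strand setting is not stated. That deposited alignment report gives uniquely mapped reads, another value, and was used for depth. A table normalized by the authors was not used. Groups came from the labels. The 24873 genes whose counts summed to 10 or more were fitted as 8 groups in 1 quasi-likelihood model with robust dispersions after TMM scaling, in edgeR 4.0.16 with limma 3.58.1 and R 4.3.3, and called at a Benjamini-Hochberg adjusted p under 0.01. Standard errors are the log2 change divided by the root of F. Libraries of a group differed beyond counting error, by at least 2.07 times its variance.

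Libraries with the same number deviated together in every pair (correlation of deviations over 0.1) for KD against WT at both oxygen levels, OE against VC in normoxia, and hypoxia in WT and VC cells. There the numbers may pair the libraries. The main fit holds no term for the number, so the p-values given are unpaired, also in these comparisons. The pairing enters only through the replicate block, an alternative. The deposited sample names call the numbers sets, without saying what a set shares, and the pairing rests on that number and these correlations. Alternatives were RLE scaling, no filter on low counts, filterByExpr, DESeq2 1.42.0, an adjusted p under 0.05, fits with only the libraries of a comparison, the replicate block, and each library or replicate number left out. A fit without OE hypoxia library 1 was added after seeing the data. The procedure was tested on simulated data. Coordinates and exon lengths come from GENCODE v44 and promoters from RefSeq.

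Members called between lines, with a mean of at least 1 CPM in the higher group, are given by library in normoxia, and several also in hypoxia, the largest changes first within each role, and other members by range and counts. From the pathway list, a few called genes with large changes are named per role, and not every called gene is named. APCDD1 and NDP, called higher in VC than in WT normoxia, are among those not described. APC, BTRC and CSNK1E are named to stand beside CTNNB1. NOTUM, CTNNB1, PORCN and ZNRF3 were named after their values were seen. The members and lists were chosen with earlier results of these data known.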

Additional observations from a re-analysis of the deposited data

Results flagged for a closer look

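The change in hypoxia differed between 2 lines, by the interaction test of edgeR at an adjusted p under 0.01, for the following members, given as the difference of log2 changes. In OE minus WT cells, FZD6 was 0.57, FZD4 was -0.61 and FZD7 was -0.75. In OE minus VC cells, WNT2B was 1.82, LEF1 1.35, SFRP4 1.28, DKK1 1.08, FZD1 1.02, FZD8 1.02, WNT5B 0.88 and FZD7 0.76. In VC minus WT cells, RSPO3 was 2.65, SFRP1 0.60, DKK1 -0.65, FZD1 -0.74, WNT5B -0.90, FZD8 -0.92, FZD4 -1.03, FZD7 -1.51 and WNT2B -1.76. OE minus VC and VC minus WT share the VC libraries. The RSPO3 value rests on 12 counts in VC normoxia. With single libraries left out, the FZD8 differences were lost without any 1 of 9 of the 12 libraries for OE minus VC (edgeR adjusted p of 0.0115 to 0.0286) and any 1 of 7 for VC minus WT (0.0109 to 0.023). WNT5B was lost without any 1 of 6 libraries for OE minus VC (0.0106 to 0.0261) and without VC hypoxia library 3 for VC minus WT (-0.79, 0.0126), and LEF1 without OE hypoxia library 3 (1.04, 0.0109).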

How the results depend on the processing

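Of 205 member calls, none changed direction under the alternatives run, 136 held in every fit with a library or replicate number left out, and calls lost elsewhere numbered 23 with only the compared libraries, 9 with DESeq2, 7 without the filter on low counts, 2 with RLE scaling and 1 with filterByExpr. With only the libraries compared, 3 members, 0 higher and 3 lower, were called for hypoxia in OE cells in place of 8 (762 genes in place of 3449), 5 for the response of OE minus VC in place of 8, and 11 for OE against WT in hypoxia in place of 17. For the response of OE minus WT, 6 were called at an adjusted p under 0.05 and 5 by DESeq2 in place of 3, and for KD minus WT 1 was called at 0.05, by DESeq2, without the filter and without OE hypoxia library 1 in the shared fit, in place of 0.

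Leaving out 1 library or replicate number gave 6 to 10 called members for hypoxia in KD cells, 3 to 9 in OE, 11 to 16 in VC and 9 to 12 in WT cells, 0 to 1 for the response of KD minus WT, 3 to 10 for OE minus VC, 1 to 6 for OE minus WT and 3 to 11 for VC minus WT. It gave 5 to 9 for KD against WT in hypoxia and 5 to 9 in normoxia, 14 to 17 and 14 to 18 for OE against WT, 18 to 20 and 18 to 22 for VC against WT, 18 to 22 and 13 to 19 for OE against VC, and 17 to 21 and 17 to 19 for the 3 lines together. The lowest value was mostly without replicate 2 of every group, which leaves 2 libraries per group. Without OE hypoxia library 1 the counts were 9 for hypoxia in OE, 10 for OE minus VC and 6 for OE minus WT. The cause of these shifts was not tested.

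With the replicate block, counts stayed within 1.5 times of the values given, 19 and 21 members for the 3 lines together among them. The block ended the calls of FRZB in VC against WT in normoxia (adjusted p = 0.0148), WNT11 against VC cells in hypoxia (0.0145 for WT and 0.0159 for OE) and WNT16 for VC against WT in hypoxia (0.0132), and brought DKK1 in OE minus WT (0.00796), DKK3 for hypoxia in KD (0.00299) and FZD6 in OE minus VC (0.00701) past the threshold. Beside FZD2 and FZD8, given with their results, it changed no other call. At these depths members under about 10 counts in a group cannot be ranked.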
